A study of Mus musculus with 21 samples.

Results

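The genes described here make or load the MHC class I molecules of the cell surface. They are 10 genes chosen by name, namely B2m, H2-K1, H2-D1, Tap1, Tap2, Tapbp, Psmb8, Psmb9, Psmb10 and Nlrc5. All 10 were found once, by symbol, among the 27968 genes of the sorted-cell table and among the 19321 genes with values in the coculture table.

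RNA-seq had been made of 21 libraries, 3 in each of 7 groups, to compare blood cells derived from mouse pluripotent stem cells (PSCs) with blood stem cells of the animal. The mouse PSCs were embryonic stem cells of 129/ola background, which were kept on inactivated feeder fibroblasts and sorted on SSEA-1. From the same background came colonies that had been induced in a 3D self-assembling peptide system and then reseeded, with stem cell factor, IL-3 and Flt3 ligand, on OP9 stromal cells treated with mitomycin C (3D+OP9) or on 0.1% gelatin (3D+0.1% gelatin). Total cells of both conditions were taken on day 5. D5-LSKCD201+ and D5-LSKCD201- cells were sorted from the 3D+OP9 condition on day 5, where LSK stands for lineage-negative, Sca-1+ and c-kit+, and CD201 is the endothelial protein C receptor. BM-LSKCD201+ cells came from the bone marrow of C57BL/6 mice aged 6 to 8 weeks and FL-LSKCD201+ cells from fetal livers of C57BL/6 embryos at E12.5. The study's methods name stem cells of both 129/ola and C57BL/6 mice, but the labels give 129/ola for every cultured library used here. By the labels, strain therefore went with origin in every comparison of cultured cells with cells of the animal, and the effects of strain, age and culture cannot be told apart there. Levels are FPKM, a level scaled to transcript length and to the fragments mapped, which can be compared between genes because they are per length. FPKM carries no read count, so depth is unknown and the error given is the SD of 3 libraries.

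MHC class I molecules show peptides from inside the cell to CD8 T cells, and natural killer cells attack cells that lack them. The heavy chain, here H2-K1 or H2-D1, pairs with the light chain beta-2 microglobulin (B2m) and is filled with peptides that the proteasome cuts, the Tap1-Tap2 transporter carries into the endoplasmic reticulum and tapasin (Tapbp) helps to load. Psmb8, Psmb9 and Psmb10 replace the constitutive catalytic subunits Psmb5, Psmb6 and Psmb7 to form the immunoproteasome, and Nlrc5 is a transactivator of class I genes. Embryonic stem cells are known for low class I levels, and interferon gamma, in part through Irf1, is the best known inducer of these genes.

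In GRCm38, 7 of the 10 genes lie on chromosome 17, most of them within the MHC. B2m is on chromosome 2 (chr2:122147686-122153083, plus strand). H2-K1 (chr17:33996017-34000347, minus strand) and H2-D1 (chr17:35262730-35267499, plus strand) lie to either side of the transporter and immunoproteasome genes of the cluster. Psmb9 (chr17:34181987-34187764, minus strand) and Tap1 (chr17:34187553-34197225, plus strand) start against each other with overlapping gene models, and Psmb8 (chr17:34197721-34201454, plus strand) and Tap2 (chr17:34203527-34216321, plus strand) follow. The deposited table gives each of these pairs 1 merged locus, and whether strand was used in counting is not given in the sources used here, so reads of the overlap of Tap1 and Psmb9 are uncertain. Tapbp, at chr17:33915899-33929292 on the plus strand, lies outside the interval between the heavy chains. Psmb10 (chr8:105935735-105938444, minus strand) and Nlrc5 (chr8:94434356-94527272, plus strand) lie on chromosome 8. All 10 are protein-coding genes, and the values are sums over their exons.

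RefSeq promoter windows (GRCm38.p6, 250 bases before to 50 bases after a start site) were given for 8 of the 10 genes, all but Tap2 and Nlrc5. They were searched on both strands. The interferon-stimulated response element (GAAA repeated after any 2 bases) was found in 1 window, that of B2m, against 3.44% of all 32851 windows. Its shorter core GAANNGAAA, which was added after the first search, stood in the windows of H2-K1 and H2-D1, against 7.52% of all windows. The letters TGACG, the core of the X2 box to which the Nlrc5 enhanceosome binds through Creb and Atf factors, stood in 5 of 8 genes' windows (B2m, H2-K1, H2-D1, Tap1 and Psmb9) against 20.8% of all windows. The kappaB form (GGG and CC with any 5 bases between them) was in the same 5, against 50.8%. The letters CCAAT were in 6 (37.4% of all windows), the GC box GGGCGG in 3 (35.7%), the GAS form TTCNNNGAA in Psmb8 alone (8.3%) and the full CRE TGACGTCA, which holds TGACG within it, in none (1.79%). The windows of Tap1 and Psmb9 overlap, and their TGACG, kappaB, CCAAT and GC box matches are the same bases, counted for both genes. These matches are letters in a window and not measured sites. The windows of the light chain and of both heavy chains are shown because these genes had the highest levels of the set in both cell types of the animal, and that of Tap1 because it covers the start shared with Psmb9. Capitals mark the interferon element in either form and TGACG, on either strand.
B2m, chr2:122147437-122147736, plus strand: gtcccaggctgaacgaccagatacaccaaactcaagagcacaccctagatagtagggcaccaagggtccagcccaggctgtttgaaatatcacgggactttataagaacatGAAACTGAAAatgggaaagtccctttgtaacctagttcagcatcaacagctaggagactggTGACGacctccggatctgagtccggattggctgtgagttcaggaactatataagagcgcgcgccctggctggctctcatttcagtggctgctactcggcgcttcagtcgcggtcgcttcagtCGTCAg
H2-K1, chr17:34000298-34000597, minus strand: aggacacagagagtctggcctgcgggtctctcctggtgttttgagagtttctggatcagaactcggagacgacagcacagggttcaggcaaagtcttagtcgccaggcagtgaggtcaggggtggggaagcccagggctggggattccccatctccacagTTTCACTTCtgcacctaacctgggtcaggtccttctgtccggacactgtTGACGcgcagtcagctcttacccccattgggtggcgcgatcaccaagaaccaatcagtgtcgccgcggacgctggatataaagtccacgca
H2-D1, chr17:35262844-35263143, plus strand: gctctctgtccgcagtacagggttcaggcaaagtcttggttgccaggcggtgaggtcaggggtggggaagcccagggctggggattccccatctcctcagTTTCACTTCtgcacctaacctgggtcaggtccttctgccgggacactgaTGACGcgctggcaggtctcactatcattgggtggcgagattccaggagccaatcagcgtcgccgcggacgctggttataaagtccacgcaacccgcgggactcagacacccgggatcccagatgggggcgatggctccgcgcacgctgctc
Tap1, chr17:34187306-34187605, plus strand: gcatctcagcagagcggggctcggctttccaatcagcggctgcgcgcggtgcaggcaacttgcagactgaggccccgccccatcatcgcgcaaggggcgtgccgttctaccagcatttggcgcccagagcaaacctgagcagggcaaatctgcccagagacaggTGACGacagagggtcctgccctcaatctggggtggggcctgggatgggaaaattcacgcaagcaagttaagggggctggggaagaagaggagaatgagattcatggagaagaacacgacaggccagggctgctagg
The H2-K1 and H2-D1 windows carry the same capitals in the same order, an interferon core followed by TGACG.

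The labels were read against marker genes before the members were compared. Summed levels of 9 pluripotency markers ranged from 7085 to 7656 FPKM in the mouse PSCs and from 3930 to 4424 in the D5-LSKCD201- cells, against 25.3 to 34.0 in the D5-LSKCD201+ cells. In the D5-LSKCD201+ cells 9 leukocyte markers summed to between 391 and 405 FPKM, of which Arhgdib gave 338, against 31.5 to 33.7 in the PSCs. Of these 9, 6 had a mean of at least 1 FPKM (Cd53 22.4, Laptm5 19.2), whereas Ptprc, the leukocyte antigen CD45, stood at 0.409 ± 0.167 FPKM (SD, n = 3). There too, 9 endothelial markers summed to between 1805 and 1827 FPKM each with a mean above 1 FPKM, and 10 stromal or fibroblast markers, as OP9 or feeder cells may carry, summed to between 250 and 256 FPKM, against 16.8 to 16.97 in the PSCs. In the FL-LSKCD201+ libraries 8 erythroid markers summed to between 22624 and 46493 FPKM and 6 hepatoblast markers to between 381 and 610, and replicate 1 stood apart from the other two. Macrophage and dendritic cell markers (10 genes) summed to between 682 and 700 FPKM in FL-LSKCD201+ cells and between 435 and 470 in BM-LSKCD201+ cells, mostly through Lyz2, and to at most 43.1 in the other sorted groups. The part of such cells in the results below was not tested. In bulk RNA, fewer expressing cells and less RNA per cell cannot be told apart.

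B2m, the light chain of every class I molecule, was the highest member in each sorted group but the mouse PSCs, where Psmb10 was higher. Its level was 23.6, 21.9 and 23.4 FPKM in the PSCs, 102, 132 and 112 in D5-LSKCD201- cells and 396, 419 and 388 in D5-LSKCD201+ cells. In FL-LSKCD201+ cells it was 1089, 766 and 816 FPKM, and in BM-LSKCD201+ cells 2734, 2666 and 2934. The 5 groups did not overlap, and marrow stood 121-fold above PSCs by the ratio of means.

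The heavy chain H2-K1 was measured at 18.3, 18.1 and 16.2 FPKM in the PSCs, 50.6, 53.6 and 53.1 in D5-LSKCD201- cells and 67.8, 72.3 and 68.0 in D5-LSKCD201+ cells. It reached 281, 262 and 255 FPKM in FL-LSKCD201+ and 1957, 2125 and 2135 in BM-LSKCD201+ cells. Again no group overlapped another, but the step between both day 5 fractions was small. H2-D1, the other classical heavy chain, was at 17.8, 14.7 and 14.6 FPKM in the PSCs, 29.2, 33.1 and 32.8 in D5-LSKCD201- cells and 110.5, 114 and 114 in D5-LSKCD201+ cells. Its FL-LSKCD201+ values were 337, 237 and 235 FPKM and its BM-LSKCD201+ values 1688, 1821 and 1845. Here the day 5 fractions stood far apart. Class I genes are near copies of each other: of the 75-base windows of the longest coding transcript, 1.55% for H2-K1 and 6.26% for H2-D1 recur exactly in another class I gene, so a part of these values is uncertain.

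The 2 transporter subunits were low in culture. Tap1 was at 2.84, 2.50 and 2.61 FPKM in the PSCs, 2.92, 3.28 and 3.24 in D5-LSKCD201- cells and 3.78, 2.87 and 2.91 in D5-LSKCD201+ cells, so the day 5 fractions overlapped. It was at 20.4, 17.7 and 16.2 FPKM in FL-LSKCD201+ cells and 86.9, 82.0 and 78.4 in BM-LSKCD201+ cells. Tap2 was at 1.88, 1.22 and 1.26 FPKM in the PSCs, 2.99, 3.24 and 2.65 in D5-LSKCD201- cells and 3.93, 3.32 and 3.66 in D5-LSKCD201+ cells. In the animal it reached 31.0, 24.9 and 25.5 FPKM in fetal liver and 132, 141 and 141 in marrow. Both subunits were thus under 4 FPKM in every sorted library from culture and above 16 FPKM in every library of the animal. Tapasin, which holds the empty heavy chain at the transporter, differed less: Tapbp was at 11.6, 12.1 and 10.5 FPKM in the PSCs, 35.9, 31.4 and 34.5 in D5-LSKCD201- cells, 31.5, 31.6 and 29.4 in D5-LSKCD201+ cells, 68.6, 64.5 and 63.2 in FL-LSKCD201+ cells and 181, 181 and 182 in BM-LSKCD201+ cells. Its day 5 fractions overlapped.

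Of the immunoproteasome subunits, Psmb8 was at 1.86, 1.52 and 1.44 FPKM in the PSCs, 9.75, 12.3 and 9.87 in D5-LSKCD201- cells and 4.24, 4.89 and 6.03 in D5-LSKCD201+ cells. It was at 138, 120 and 116 FPKM in FL-LSKCD201+ cells and 325, 341 and 350 in BM-LSKCD201+ cells. The CD201- fraction thus lay above the CD201+ fraction, in the reverse order of B2m and the heavy chains. Psmb9 gave 2.05, 1.55 and 1.46 FPKM in the PSCs, 3.51, 2.63 and 3.90 in D5-LSKCD201- cells and 0.685, 0.779 and 1.03 in D5-LSKCD201+ cells, which were the lowest of the 5 groups. Its FL-LSKCD201+ values were 46.3, 55.1 and 53.0 FPKM and its BM-LSKCD201+ values 120, 132 and 141. Psmb10 was the highest member in the mouse PSCs, at 55.9, 57.6 and 53.0 FPKM. It was at 41.7, 40.1 and 47.7 in D5-LSKCD201- cells and 30.9, 30.9 and 30.9 in D5-LSKCD201+ cells. In FL-LSKCD201+ cells it was at 91.7, 115 and 111 FPKM and in BM-LSKCD201+ cells at 156, 191 and 183. Its levels went down from PSCs to the CD201+ fraction of day 5 without overlap, while they were highest in the animal.

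Nlrc5, the transactivator, was the lowest member in each group. It was at 0.167, 0.271 and 0.0475 FPKM in the PSCs, 0.0640, 0.0640 and 0.0453 in D5-LSKCD201- cells and 0.0387, 0.0551 and 0.127 in D5-LSKCD201+ cells, and these 3 groups overlapped. FL-LSKCD201+ cells had 0.698, 0.613 and 0.713 FPKM and BM-LSKCD201+ cells 4.95, 3.76 and 3.06. Every library of the animal was above every cultured one.

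**Figure D1:**
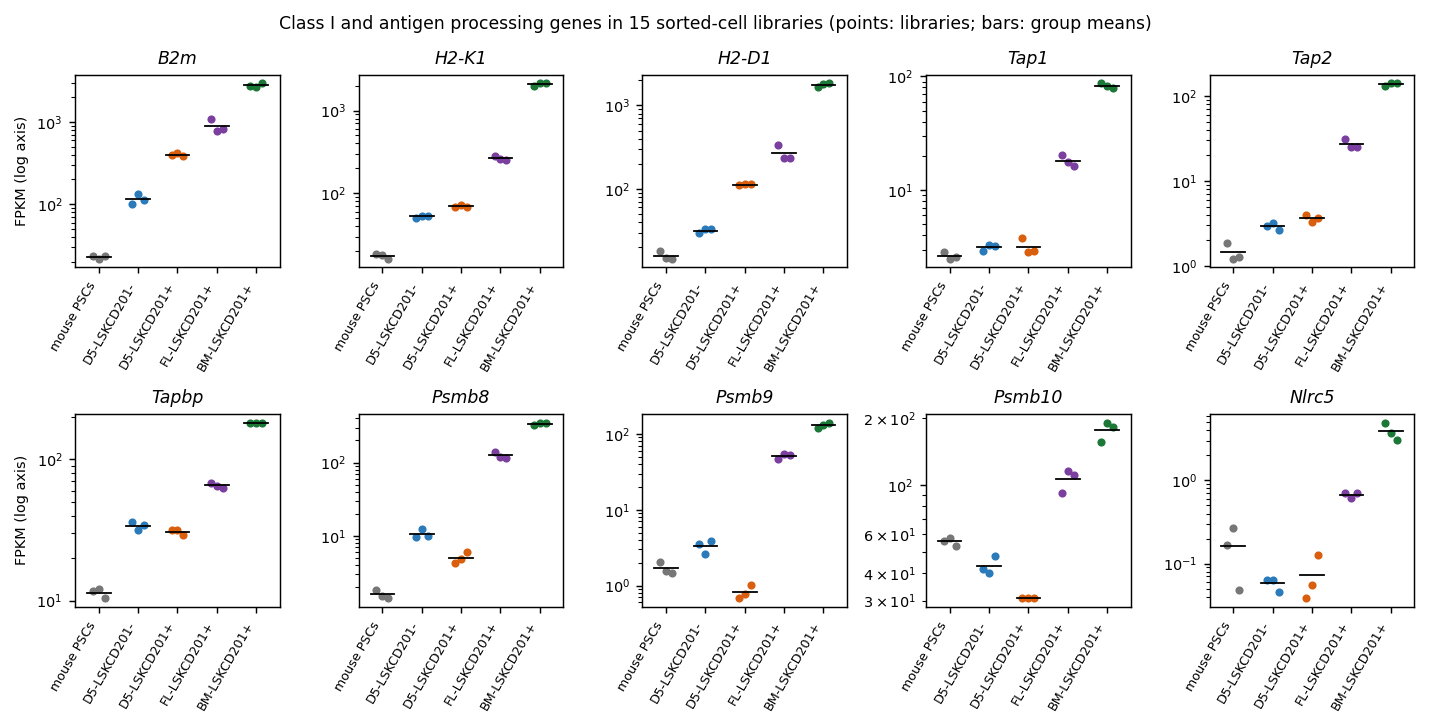
FPKM of each member on a log axis in the 15 sorted-cell libraries, with points for single libraries and bars for the means of 3. Marrow was the highest and fetal liver the next highest group for all 10 genes, and the CD201+ fraction was the lowest group for Psmb9 and Psmb10.

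Ordered by mean level, BM-LSKCD201+ was the highest and FL-LSKCD201+ the second group for 10 of 10 members. Mouse PSCs were the lowest group for 7, D5-LSKCD201+ for 2 (Psmb9 and Psmb10) and D5-LSKCD201- for 1 (Nlrc5). Neighbours in these orders that overlapped were D5-LSKCD201- with D5-LSKCD201+ cells for Tap1, Tapbp and Nlrc5, and D5-LSKCD201+ cells with mouse PSCs for Nlrc5. For the differences below, limma was run on log2(FPKM + 1) over all genes averaging 0.5 FPKM or more, and a gene was called where the adjusted p was under 0.05 and the log2 fold change was 1 or more in size. Fold changes are on that log2 scale, which understates the change of low genes such as Nlrc5 and Psmb9. A gene under 0.5 FPKM in 1 group of a comparison was tested through the other group alone, so that its direction was set by the filter. Such genes are left out of the counts of markers called, and their number is given beside the counts of the other gene lists. A p-value rests only on the spread between libraries of the same group, which limma pools over both groups and draws towards the trend of all genes. That spread may be technical where the libraries share cultures or animals. Comparisons that share a group are not independent of each other, and their values are given side by side only.

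From PSCs to day 5, B2m, H2-K1, Tapbp and Psmb8 were called higher in both fractions and H2-D1 in the CD201+ fraction alone. Neither transporter subunit was called in either fraction. Against mouse PSCs, 5 of 9 members tested rose in D5-LSKCD201+ cells, where 19.5% of all 13441 genes tested were called higher, and 0 fell, where 18.1% were called lower. B2m rose by 4.07 (SE 0.04, adjusted p = 9.9e-12), which was 17.5-fold, H2-D1 by 2.77 (SE 0.07) and H2-K1 by 1.93 (SE 0.06). Tapbp rose by 1.36 (SE 0.06) and Psmb8 by 1.21 (SE 0.12). Tap2 differed by 0.93 (SE 0.12, adjusted p = 5.6e-05) and was not called. Its value was past both limits at 1.05 without mouse PSCs replicate 1 and at 1.29 with a pseudocount of 0.1. Tap1 was at 0.19 (adjusted p = 0.106), Psmb9 at -0.55 and Psmb10 at -0.82 (adjusted p = 1.1e-07), none of them called. The median log2 fold change was 1.21 over the 9 members and -0.07 over all genes. In D5-LSKCD201- cells against mouse PSCs, 4 of 9 members rose (10.9% of 13596 genes called higher) and 0 fell (3.48% called lower). They were B2m (2.27, SE 0.10), Psmb8 (2.16, SE 0.12), H2-K1 (1.53, SE 0.07) and Tapbp (1.49, SE 0.08). Tap2 at 0.70 (adjusted p = 0.00361), Psmb9 at 0.69 (adjusted p = 0.00617) and Psmb10 at -0.36 (adjusted p = 0.0066) passed the p limit only. Tap1, at 0.19 (adjusted p = 0.146), passed neither limit. H2-D1 stood at 0.97 (SE 0.10, adjusted p = 0.000155), just under the fold limit, and was called at 1.03 without D5-LSKCD201- replicate 1 and at 1.06 without mouse PSCs replicate 1. The median was 0.97 over the members and 0.05 over all genes. Pluripotency markers were still present in these CD201- cells at the sums given above. In D5-LSKCD201+ cells against PSCs 5 of 5 endothelial and 5 of 6 stromal markers with at least 0.5 FPKM in both groups were called higher, as were 2 of 5 endothelial and 6 of 6 stromal markers in the D5-LSKCD201- cells, and their part in the member differences was not tested.

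Between the day 5 fractions, the light chain B2m and the heavy chain H2-D1 were higher and the immunoproteasome subunit Psmb9 was lower in the CD201+ cells. In D5-LSKCD201+ against D5-LSKCD201- cells, B2m rose by 1.80 (SE 0.09, adjusted p = 3.7e-06) and H2-D1 by 1.80 (SE 0.06, adjusted p = 5.9e-07), so 2 of 9 members tested were higher against 10.8% of all 13691 genes. Psmb9 fell by 1.24 (SE 0.14, adjusted p = 0.000179), 1 of 9 against 13.9% of all genes called lower. The share of members called was thus near that of all genes in the downward direction. H2-K1 differed by 0.40 (SE 0.05, adjusted p = 0.000491), Psmb8 by -0.95 (SE 0.14, adjusted p = 0.000772) and Psmb10 by -0.47 (SE 0.07, adjusted p = 0.0011), all past the p limit and under the fold limit. Psmb8 was called lower at -1.001 without D5-LSKCD201- replicate 1 and at -1.06 without D5-LSKCD201+ replicate 3. Tap1 (0.01, adjusted p = 0.966), Tap2 (0.23, adjusted p = 0.0901) and Tapbp (-0.13, adjusted p = 0.13) were not called. With the FPKM of all class I heavy chain genes summed, the difference was 0.90 (SE 0.05), under the fold limit, so the call of H2-D1 did not hold for the sum. The member median was 0.01, with -0.12 over all genes, and quantile normalization took the latter to -0.02. Pluripotency markers were called lower for 6 of 6, and 9 of 9 endothelial, 4 of 7 leukocyte and 3 of 8 stromal markers were called higher in the same comparison, with 1 leukocyte marker lower, and their part in it was not tested.

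**Figure D2:**
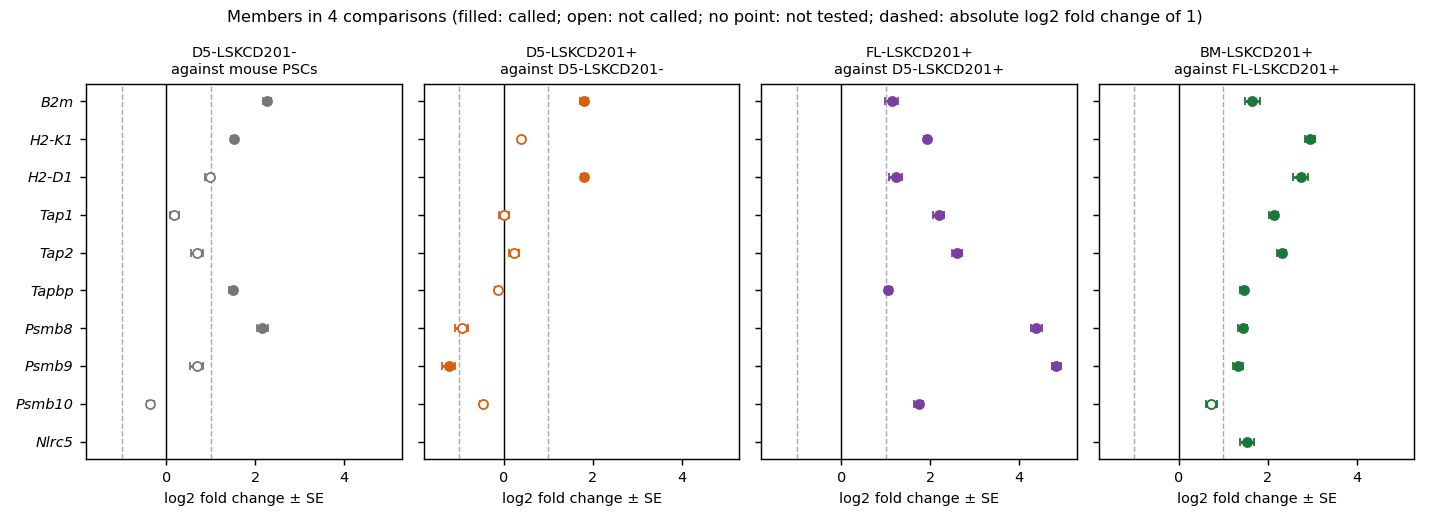
Log2 fold change of each member with its SE in 4 comparisons of sorted cells, 3 libraries a group, where filled points were called, open points were not and a missing point was not tested. Between the day 5 fractions B2m and H2-D1 lie at 1.80 and Psmb9 at -1.24, whereas all points lie right of 0 for fetal liver against D5-LSKCD201+ and for marrow against fetal liver.

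Against D5-LSKCD201+ cells, the fetal liver cells had more of every member that could be tested, and the largest differences were in Psmb9 and Psmb8. All 9 members tested rose in FL-LSKCD201+ cells (19.6% of 13627 genes called higher) and 0 fell (15.1% called lower). Psmb9 rose by 4.84 (SE 0.11, adjusted p = 1.0e-07), 61.9-fold by the ratio of means, and Psmb8 by 4.39 (SE 0.13), 24.7-fold. The fold of Psmb9 was formed over a mean of 0.831 FPKM in D5-LSKCD201+ cells, so its size is uncertain. Next came Tap2 at 2.60 (SE 0.11), Tap1 at 2.19 (SE 0.13), H2-K1 at 1.92 (SE 0.07) and Psmb10 at 1.74 (SE 0.10). H2-D1 rose by 1.23 (SE 0.15), B2m by 1.13 (SE 0.14, adjusted p = 0.000352) and Tapbp by 1.06 (SE 0.07). The call of B2m rested on FL-LSKCD201+ replicate 1, without which its value was 0.98 and under the fold limit. Nlrc5 was below the level filter. The median was 1.92 over the members and 0.16 over all genes, and quantile normalization took the latter to 0.06. Leukocyte markers moved with this difference: 7 of 7 were called higher in FL-LSKCD201+ cells, where the list summed to between 2197 and 2384 FPKM against 391 to 405. Also called higher were 4 of 4 erythroid, 1 of 1 hepatoblast and 3 of 4 macrophage and dendritic cell markers, and 1 of the latter 4 was called lower. Lymphocyte and natural killer cell markers summed to between 38.1 and 53.5 FPKM against 1.04 to 1.45. Endothelial and stromal markers were called lower, 7 of 9 and 4 of 5. The part of these in the member difference was not tested.

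Adult marrow cells had the highest levels of all. Against D5-LSKCD201+ cells 9 of 9 members with at least 0.5 FPKM in both groups rose (27.2% of 13775 genes called higher) and 0 fell (17.5% called lower). Nlrc5 passed the level filter through the marrow libraries only and is left out here. Psmb9 rose by 6.17 (SE 0.10), Psmb8 by 5.82 (SE 0.10), Tap2 by 4.91 (SE 0.07) and H2-K1 by 4.88 (SE 0.05), with adjusted p-values from 1.3e-09 to 6.0e-09. Tap1 rose by 4.32, H2-D1 by 3.97, B2m by 2.79, Tapbp by 2.52 and Psmb10 by 2.47. The median was 4.32 over these 9 members and 0.23 over all genes (0.03 after quantile normalization). As well as the members, 7 of 7 leukocyte, 4 of 4 erythroid and 2 of 4 macrophage and dendritic cell markers were called higher. Called lower were 1 of 4 macrophage and dendritic cell, 7 of 8 endothelial and 2 of 3 stromal markers. Lymphocyte and natural killer cell markers summed to between 94.9 and 113 FPKM in marrow against 1.04 to 1.45, and the part of all these was not tested. Against FL-LSKCD201+ cells 9 of 10 members rose (11.3% of 13503 genes called higher) and 0 fell (7.78% called lower). The heavy chains led, H2-K1 by 2.96 (SE 0.11, adjusted p = 2.6e-06) and H2-D1 by 2.74 (SE 0.17), which were 7.79-fold and 6.62-fold. Tap2 rose by 2.31 (SE 0.11), Tap1 by 2.13 (SE 0.11), B2m by 1.66 (SE 0.17), Nlrc5 by 1.54 (SE 0.16), Tapbp by 1.46 (SE 0.08), Psmb8 by 1.44 (SE 0.10) and Psmb9 by 1.33 (SE 0.11). Psmb10, at 0.73 (SE 0.13, adjusted p = 0.00209), was past the p limit only. The member median was 1.598 for marrow against fetal liver, with 0.13 over all genes and 0.02 after quantile normalization. Both groups here are C57BL/6. Erythroid markers were called lower in marrow for 5 of 5 and hepatoblast markers for 1 of 1, and of 8 macrophage and dendritic cell markers 0 were called higher and 2 lower. Leukocyte markers, with 3 of 9 called higher and sums of 2735 to 3103 FPKM against 2197 to 2384, and lymphocyte and natural killer cell markers, with 1 of 5 higher and sums of 94.9 to 113 against 38.1 to 53.5, moved with the members, and their part was not tested.

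The ratio of each inducible subunit to the constitutive one it replaces was formed in every library. Psmb8 over Psmb5 was 0.0117 ± 0.0015 (SD, n = 3) in the PSCs, 0.0776 ± 0.0059 in D5-LSKCD201- cells, 0.0448 ± 0.0086 in D5-LSKCD201+ cells, 0.470 ± 0.015 in FL-LSKCD201+ cells and 2.77 ± 0.08 in BM-LSKCD201+ cells. Only in marrow did the inducible subunit exceed its counterpart. Psmb9 over Psmb6 was 0.0035 in PSCs, 0.0070 in D5-LSKCD201- cells, 0.0023 in D5-LSKCD201+ cells, 0.145 in fetal liver and 0.538 ± 0.019 in marrow. Psmb6 thus stayed the more abundant in each group. Psmb10 over Psmb7 was 0.209 in PSCs and 0.204 and 0.164 in the CD201- and CD201+ fractions of day 5, then 0.628 in FL-LSKCD201+ and 2.49 ± 0.17 in BM-LSKCD201+ cells. In marrow against fetal liver the constitutive Psmb5 and Psmb7 fell by 1.11 (SE 0.11) and 1.24 (SE 0.08), while Psmb6 was at -0.54 and not called.

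**Figure D3:**
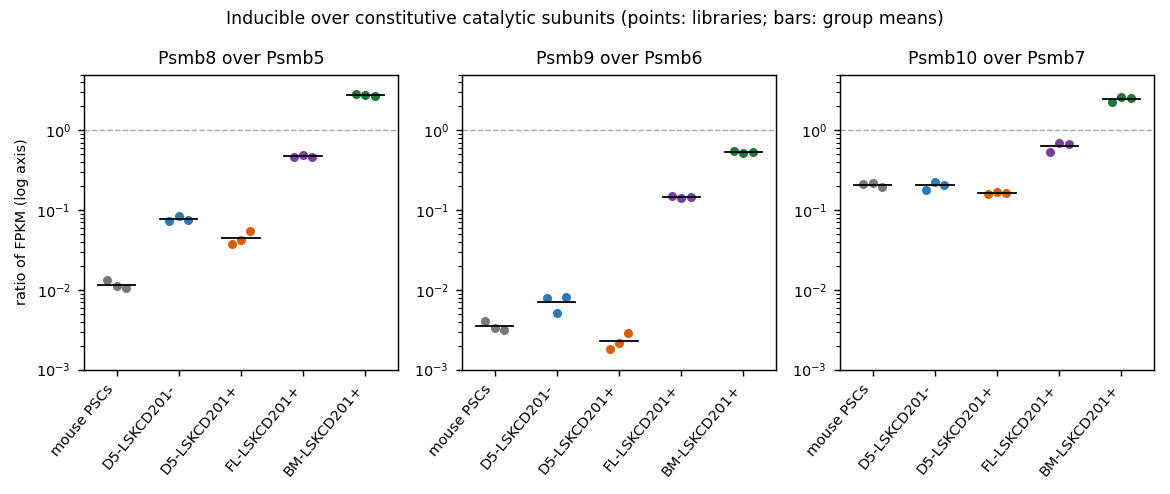
Ratio of FPKM of each inducible catalytic subunit to its constitutive counterpart on a log axis, with points for single libraries, bars for the means of 3 and a dashed line at equal levels. Marrow is above the line for Psmb8 and Psmb10, at 2.77 and 2.49, and below it for Psmb9, at 0.538.

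The balance of light and heavy chains differed between groups. B2m over the sum of H2-K1 and H2-D1 was 0.694 ± 0.059 (SD, n = 3) in the PSCs, 1.36 ± 0.13 in D5-LSKCD201- cells, 2.20 ± 0.06 in D5-LSKCD201+ cells, 1.65 ± 0.11 in FL-LSKCD201+ cells and 0.721 ± 0.040 in BM-LSKCD201+ cells. The extremes of level, PSCs and marrow, thus had nearly the same ratio of B2m to these classical heavy chains. Other class I-like heavy chains, such as H2-T23 and H2-M5 below, were not counted in the ratio. Their levels differed between the groups as well, so the balance over all heavy chains is not known from it. H2-D1 over H2-K1 was highest in D5-LSKCD201+ cells, at 1.63 ± 0.05, and lowest in D5-LSKCD201- cells, at 0.604 ± 0.023, with 0.896 in PSCs, 1.01 in FL-LSKCD201+ and 0.861 in BM-LSKCD201+ cells. The day 5 fractions therefore carried different heavy chains at the higher level.

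Among 21 other class I-like heavy chains, 19 of which were listed, the largest differences were in marrow. Against FL-LSKCD201+ cells 12 of 15 tested rose and 1, tested through fetal liver alone, was lower, where 11.3% and 7.78% of all genes were called. H2-Q7 was at 182, 193 and 195 FPKM in BM-LSKCD201+ libraries and at most 2.19 in those of fetal liver, a rise of 6.18 (SE 0.16), and H2-Q6 rose by 6.49 (SE 0.18). H2-T23, the mouse Qa-1 heavy chain that natural killer cells read through CD94-NKG2A, had means of 0.370 FPKM in the PSCs, 5.20 and 7.95 in the CD201- and CD201+ fractions of day 5, 81.7 in FL-LSKCD201+ and 427 in BM-LSKCD201+ cells. It rose in fetal liver against D5-LSKCD201+ by 3.19 (SE 0.14) and in marrow against fetal liver by 2.38 (SE 0.15). H2-M5 ran the other way, with 14.9 FPKM in PSCs and 10.3 and 0.172 in the CD201- and CD201+ fractions of day 5. Reads of the H2-Q genes are uncertain for the same reason as those of H2-D1.

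Of 9 genes for peptide loading and trimming in the endoplasmic reticulum, 4 rose in D5-LSKCD201+ cells against PSCs (19.5% of all genes called higher), namely Erap1 by 1.49, Hspa5 by 1.25, Pdia3 by 1.20 and Calr by 1.15. Of the same 9, 2 rose (Tapbpl by 2.24 and Erap1 by 1.77) and 2 fell (Calr by 1.36 and Hspa5 by 1.10) in FL-LSKCD201+ against D5-LSKCD201+ cells, near the shares of all genes (19.6% and 15.1%). Calr, calreticulin, was highest in D5-LSKCD201+ cells, at 616 FPKM against 398 in D5-LSKCD201- cells, 277 in PSCs, 239 in fetal liver and 201.4 in marrow. Tapbpl and Erap1, a tapasin relative and a peptide-trimming enzyme, rose in marrow as well, by 3.65 and 2.37 against D5-LSKCD201+ cells, and there 2 of the 9 rose and 3 fell (27.2% and 17.5% of all genes). Psme1, a subunit of the interferon-inducible 11S activator of the proteasome, rose by 1.21 (SE 0.18) in fetal liver and by 1.63 (SE 0.08) in marrow against D5-LSKCD201+ cells, whereas its partner Psme2 stood at 0.58 and 0.49 and was not called. The constitutive subunit Psmb5 rose by 1.22 (SE 0.09) in fetal liver against D5-LSKCD201+ cells. Psmb7, also constitutive, was called lower in marrow against D5-LSKCD201+ cells, at -1.40. Of the 11 other 20S subunits with at least 0.5 FPKM in both marrow and D5-LSKCD201+ cells, 0 rose and 2 fell, near the share of all genes called lower (17.5%), Psmb3 by 1.17 and Psma5 by 1.01, the latter at -0.93 and not called without BM-LSKCD201+ replicate 1.

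Regulators of class I genes were called higher more often than lower in the CD201+ against the CD201- fraction of day 5. In D5-LSKCD201+ against D5-LSKCD201- cells 10 of 28 tested rose and 2 fell, where 10.8% and 13.9% of all genes were called. The interferon gamma receptor chains were among those that rose: Ifngr1 was at 46.6, 44.5 and 44.5 FPKM against 7.91, 8.44 and 8.20, a rise of 2.33 (SE 0.06), and Ifngr2, which was named after its values were seen, rose by 1.496 (SE 0.08). Irf1, which binds the interferon element, was at 4.51, 4.48 and 3.87 FPKM in D5-LSKCD201+ cells against 18.2, 19.8 and 18.3 in D5-LSKCD201- cells and fell by 1.91 (SE 0.09, adjusted p = 1.9e-06). Irf2, which binds the same element, rose by 2.22 (SE 0.10). So both receptor chains and Irf2 were higher and Irf1 was lower in the CD201+ fraction. More regulators rose than fell in the animal as well. In fetal liver against D5-LSKCD201+ cells 9 of 28 rose and 3 fell (19.6% and 15.1% of all genes). In marrow against D5-LSKCD201+ cells 16 of 28 rose and 2 fell (27.2% and 17.5% of all genes).

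Irf1 was at 39.0, 26.5 and 27.2 FPKM in FL-LSKCD201+ cells, a rise of 2.58 (SE 0.16) over D5-LSKCD201+ cells, and at 167, 156 and 158 in BM-LSKCD201+ cells, a further rise of 2.36 (SE 0.15). Rfx5, a subunit of the X box factor, rose by 1.06 (SE 0.22) in marrow against fetal liver, and was not called at 0.92 and 0.93 without FL-LSKCD201+ replicate 2 or 3 or at 0.88 after quantile normalization. Ciita, the class II transactivator and relative of Nlrc5, was at 0.0606 FPKM in fetal liver and 0.984 in marrow.

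**Figure D4:**
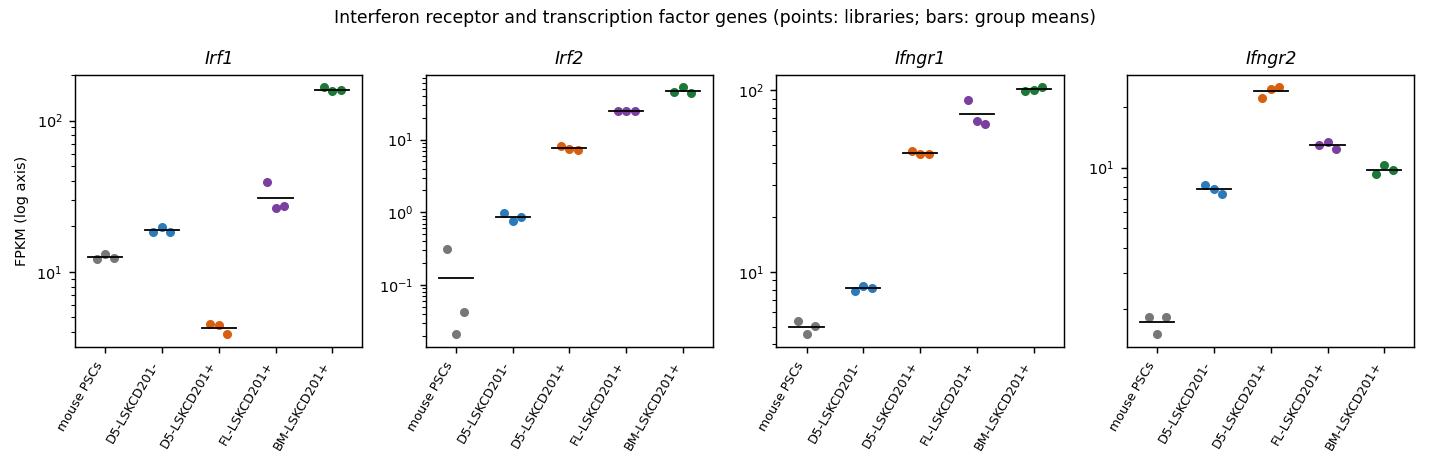
FPKM of 4 regulator genes on a log axis in the 15 sorted-cell libraries, with points for single libraries and bars for the means of 3. Irf1 is lowest in D5-LSKCD201+ cells, at 4.29 FPKM on average, whereas Ifngr2 is highest there, at 23.8 FPKM.

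Interferon response genes were listed apart from their regulators. In D5-LSKCD201+ against D5-LSKCD201- cells 9 of 22 tested rose (10.8% of all genes), among them Rtp4 (2.31, SE 0.21), and Ifitm1 fell by 3.66 (SE 0.07), 1 of 22 (13.9%). In fetal liver against D5-LSKCD201+ cells 9 of 24 rose and 1 fell (19.6% and 15.1%). In marrow against fetal liver 18 of 25 rose and 0 fell (11.3% and 7.78%). Of those that rose, 1 in each of these 3 comparisons was tested through the higher group alone. The rise in marrow was led by the GTPases Iigp1 (3.16, SE 0.13) and, after Ifi44 (3.05), Gbp2 (2.69, SE 0.11). MHC class II genes, which antigen-presenting cells use for outside antigens, were called higher for 9 of 9 tested in that comparison (11.3% of all genes). Cd74, the invariant chain, was at 396, 417 and 417 FPKM in BM-LSKCD201+ cells against 29.3, 10.5 and 10.2 in FL-LSKCD201+ cells. H2-Aa had a mean of 152 FPKM in marrow against 3.06, of which FL-LSKCD201+ replicate 1 alone had 7.19. In D5-LSKCD201+ cells they were at 0.533 and 0.0503 FPKM, and against these Cd74 rose by 8.07 (SE 0.08) in marrow.

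Of 11 surface molecules read by T and natural killer cells, Cd47, the signal that restrains phagocytes, followed the class I order with 3.36 FPKM in the PSCs, 17.5 and 49.7 in the CD201- and CD201+ fractions of day 5, 173 in FL-LSKCD201+ and 270 in BM-LSKCD201+ cells. It rose by 1.47 (SE 0.12) between the day 5 fractions and by 1.78 (SE 0.08) from D5-LSKCD201+ cells to fetal liver. The stress ligand Raet1e, which activates natural killer cells through NKG2D, was at 9.63 FPKM in D5-LSKCD201+ cells and 0.257 in fetal liver, and was listed at 0 in all marrow libraries. Cd274, the ligand PD-L1, was at 0.118 FPKM in D5-LSKCD201+ cells, 3.07 in fetal liver and 8.84 in marrow, and rose by 1.31 (SE 0.26) between the latter 2 groups.

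In the coculture table, OP9 stroma was compared with gelatin in total cells. No member was called: 0 of 9 tested were higher (2.11% of 12958 genes) and 0 lower (0.509%) by limma, while 5 of 9 had an unadjusted p under 0.05, all with the lower value on OP9, where 9.77% of all genes were lower at that limit. Tapbp was at 28.4, 26.5 and 25.4 FPKM on OP9 and 58.7, 49.8 and 41.0 on gelatin, without overlap. The difference of -0.86 on the log2 scale (SE 0.13, adjusted p = 0.00989) passed the p limit and not the fold limit. Psmb10 was at 36.2, 35.3 and 37.1 FPKM against 61.4, 53.3 and 43.2, also without overlap (-0.51, SE 0.12, adjusted p = 0.0526). Tap1 was at 3.15, 3.08 and 3.55 FPKM on OP9 and 3.92, 5.43 and 4.59 on gelatin (-0.40, adjusted p = 0.13), and Tap2 at 3.8, 2.96 and 4.22 against 7.11, 4.78 and 4.31 (-0.44, adjusted p = 0.218). The highest OP9 library of either subunit lay just under the lowest gelatin library. Psmb8, with 8.62, 8.53 and 10.3 FPKM against 19.3, 12.2 and 10.3, overlapped (-0.51, adjusted p = 0.205).

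B2m was at 63.4, 54.0 and 76.9 FPKM on OP9 and 53.6, 54.4 and 73.4 on gelatin (0.10, SE 0.16, adjusted p = 0.775). H2-K1 was at 34.3 ± 3.8 FPKM (SD, n = 3) on OP9 and 38.0 ± 1.6 on gelatin, H2-D1 at 23.4 ± 2.8 and 25.8 ± 3.2, and Psmb9 at 2.64 ± 0.59 and 2.81 ± 0.99. All of these overlapped between conditions, and no difference of theirs was detectable with 3 libraries. Nlrc5, at 0.267 ± 0.078 and 0.177 ± 0.058 FPKM, was below the filter. The member median was -0.40, with 0.01 over all genes. On OP9, 6 of 22 interferon response genes rose (2.11% of all genes), 4 of them tested through OP9 alone, and Gbp2 fell by 1.23 (SE 0.16), 1 of 22 (0.509%). Endothelial markers summed to between 116 and 140 FPKM on OP9 and between 23.3 and 39.5 on gelatin, and 10 stromal markers, which OP9 cells may also carry, to between 84.3 and 98.7 against 49.4 to 61.3. Erythroid markers summed to between 40.5 and 112 FPKM on OP9 against 1.43 to 4.56, and leukocyte markers to between 23.1 and 25.7 against 7.80 to 9.62. Pluripotency markers summed to between 871 and 1752 FPKM against 1297 to 1388, and 3 of 9 were called higher and 0 lower, with a median of -0.44 and with Pou5f1 at -0.71 and Nanog at -0.98 past the p limit only. Their part in the member values was not tested.

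**Figure D5:**
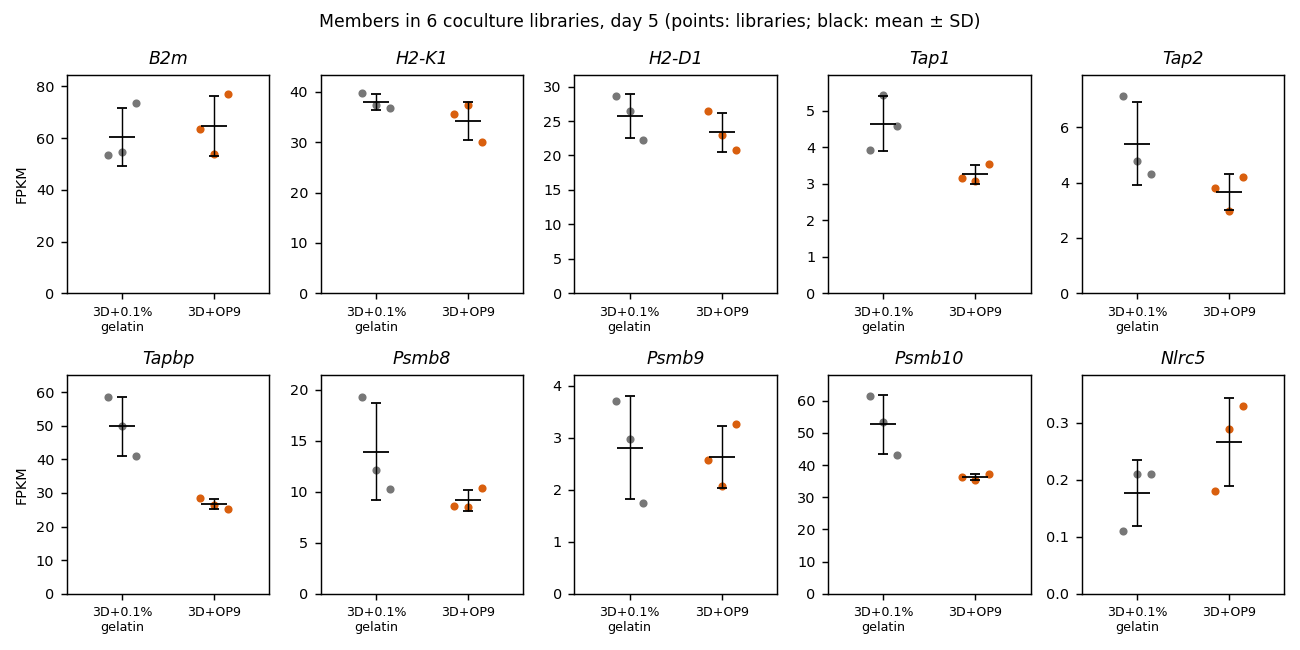
FPKM of each member in the 6 coculture libraries of day 5, with points for single libraries and black bars for the mean and SD of 3, each axis starting at 0. Tapbp, Psmb10, Tap1 and Tap2 lie lower on OP9 in every library, and the other members overlap.

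Across the 15 sorted-cell libraries, the genes whose log2 profile was most like the mean standardized profile of the members were Osgin1 (Pearson r = 0.997), Traf5 (0.995), Nfkbia (0.994), Tshz1 (0.994) and Ccnl1 (0.994). These values describe 15 libraries that fall into 5 groups. Osgin1 was at 0.351, 1.25, 1.90, 24.2 and 216 FPKM on average from mouse PSCs through D5-LSKCD201-, D5-LSKCD201+ and FL-LSKCD201+ to BM-LSKCD201+ cells. Nfkbia, the inhibitor of NF-kappaB and itself a target of it, went from 20.8 to 39.2, 44.5, 149 and 406 FPKM in the same order. Among the members, the correlation of each with the mean of the others ranged from 0.868 for Psmb10 to 0.998 for Tap2.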

How the data were processed

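RNA-seq of 21 libraries in 7 groups was used. According to the methods of the study and the submitters' processing notes, reads were aligned to GRCm38 with HISAT2 2.0.5, assembled with StringTie 1.3.3 and tested with Cuffdiff 1.3.0 (the notes also name mm9). The authors deposited FPKM per gene and library in 2 tables, each normalized on its own, and no test crossed them. Of 22899 genes in the coculture table, 3578 were blank in all 6 libraries. Depth is unknown.

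For the tests, log2(FPKM + 1) of all genes averaging 0.5 FPKM or more over the libraries compared was fitted with limma 3.58.1 in R 4.3.3 (empirical Bayes with trend, two-sided, Benjamini-Hochberg adjustment over every gene tested), in 7 comparisons, and the fit was tested on simulated data. With 3 libraries against 3, an exact two-sided permutation test of a single gene cannot give a p below 0.1, so none was used. Positions came from GENCODE M21 and promoter windows from RefSeq. Plots were made in Python 3.11.15 with matplotlib 3.10.9.

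The members and lists were chosen with earlier results of these data known. All members were named. Of the other lists, up to 3 called genes per direction and comparison were named, and a fixed set of partners and regulators of the members, of which 1 is not reported here. In marrow against fetal liver the same-numbered libraries deviated together (correlations of 0.24, 0.20 and 0.16), from the data and not from the labels. Not every library there was closest to its own number, so the numbers do not establish pairs. A blocked fit that treated the numbers as pairs was run in all 7 comparisons. Alternatives were a pseudocount of 0.1, other filters, quantile normalization, no trend, a replicate block, 1 fit over all 5 sorted groups, the p limit alone, each library left out and class I genes summed.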

Additional observations from a re-analysis of the deposited data

How the results depend on the processing

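Of 194 member counts under the alternatives, 8 moved by over 1.5 times. Members lower in D5-LSKCD201+ against D5-LSKCD201- cells went from 1 to 2 with a pseudocount of 0.1 and to 3 with the p limit alone, and ranged from 1 to 2 with each library left out. With the p limit alone, 2 were lower in D5-LSKCD201+ cells against mouse PSCs, 7 were higher and 1 lower in D5-LSKCD201- cells against mouse PSCs, and 1 was lower on OP9. Of 915 member fold changes under alternatives, 7 changed sign, all near 0. Under quantile normalization Tap1 went to -0.0590 and Psmb6 to -0.0415 in D5-LSKCD201- cells against mouse PSCs, and Rfx5 to 0.171 between the day 5 fractions, and the cause was not tested. With each library left out, the values that changed sign ranged from -0.0935 to 0.0602 for Tap1 and from -0.147 to 0.0510 for Rfx5 between the day 5 fractions, from -0.0562 to 0.0158 for Psmb5 and from -0.0566 to 0.0620 for Psmb6 in D5-LSKCD201- cells against mouse PSCs, from -0.101 to 0.0508 for Psmb6 in fetal liver against D5-LSKCD201+ cells, from -0.303 to 0.0355 for Psme2 in marrow against fetal liver, and on OP9 from -0.0320 to 0.243 for B2m and from -0.263 to 0.126 for Psmb9. The replicate block left all 14 member counts as they were (9 higher in marrow against fetal liver) and changed no member's call. Outside that pair of groups the replicate numbers did not pair the libraries, and within it they did so only in part. With 3 libraries a group and unknown depth, levels under 1 FPKM, such as those of Nlrc5 in culture, are the least certain.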
